A study of Homo sapiens with 12 samples.

Results

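The cell cycle and replication genes are 46 genes, named in a list, that drive or mark DNA replication and cell division. All 46 were found among the 28256 gene symbols of the deposited count table for HepG2 cells, and each was followed through the transcript with the highest total over the 12 libraries. After a filter on low counts 45 of the 46 were tested, and the other one, CDKN1C, was listed at 0 in every library. The list was given by function and not by any measured value, and it was chosen with earlier results of these data known.

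HepG2 is an established human line from a hepatoma, and wild type per the labels. RNA was sequenced from 4 groups of 3 libraries each, all from cells held in charcoal-stripped serum for 24 h before a treatment of 24 h. DexKLA cells received dexamethasone (Dex, 50 nM) together with KLA (labelled 100 ng/µl), Dex cells received dexamethasone alone, KLA cells received KLA alone, and DMSO cells received the vehicle (0.1%). Dexamethasone is a glucocorticoid drug. KLA is not explained in the labels, and the name is commonly used for Kdo2-lipid A, which is sensed by TLR4. The labels do not say whether the treated cells also received DMSO, or whether replicates within a group came from separate cultures. The p-values therefore cover only the differences among these libraries, possibly technical ones. All libraries came from 1 tumour line, which divides in culture.

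Library totals over genes ran from 4514606 to 11484497 counts in DexKLA, from 3642685 to 17782057 in Dex, from 15998657 to 20933501 in KLA and from 3317740 to 5277463 in DMSO. Every KLA library was deeper than every DMSO library, so depth and KLA treatment cannot be told apart in that comparison. All 11 hepatocyte and HepG2 identity genes, ALB and AFP among them, were detected and passed the filter, and their summed level was 12.6% to 15.2% of a library's counts in DexKLA, 13% to 13.8% in Dex, 12% to 12.8% in KLA and 10% to 11.5% in DMSO. That sum was thus lower in every DMSO library than in any treated one, and its part in the results below was not tested. A sum weighs abundant genes most, and the genes of this list did not all move with it. Of the 11, 7 were lower than in DMSO in DexKLA (median log2 change −0.13), 4 in Dex (median 0.07) and 7 in KLA (median −0.04). Of the 16 markers of fibroblasts, leukocytes and endothelium 4 passed the filter (LYZ, CD68, PDGFRB and PECAM1), and COL1A2, CD163, CD3E and KDR were at 0 in every library. The summed leukocyte and macrophage list took 0.399% to 0.425% of counts in DexKLA, 0.401% to 0.421% in Dex, 0.435% to 0.47% in KLA and 0.401% to 0.457% in DMSO, nearly all of it LYZ, whose mean was 4140 CPM in DexKLA. The fibroblast list stayed at or under 0.00306% and the endothelial list at or under 0.000549% in every library. The part of these levels in the results below was not tested. The nuclear RNAs MALAT1 and NEAT1, kept as a check of RNA quality, together took 0.016% to 0.0206% of counts in DexKLA, 0.0144% to 0.0176% in Dex, 0.0125% to 0.0216% in KLA and 0.0109% to 0.0178% in DMSO.

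Cells enter the cycle when D and E cyclins activate their kinases, the pocket proteins release the E2F factors, and E2F targets such as the MCM helicase, PCNA and the nucleotide enzymes are made for S phase. Later the A and B cyclins with CDK1, FOXM1 and the Polo and Aurora kinases carry the cell through mitosis, and the CIP/KIP proteins hold the kinases back. The RNA of most of these genes rises and falls within each cycle, so that their level in a bulk sample follows the share of cells that are cycling. In a bulk sample, fewer cycling cells and less RNA per cycling cell cannot be told apart. Glucocorticoids are known to slow the growth of some hepatoma lines and to raise CDKN1A or CDKN1C in several cell types.

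Different kinds of promoter are known to time these genes, and 5 are printed here as examples from genes of different roles in the list. S-phase genes carry E2F sites, and genes of G2 and mitosis carry a cell cycle homology region (CHR) downstream of a CCAAT box, to which the DREAM and MuvB complexes and the factor NF-Y bind. Each sequence is the RefSeq promoter of GRCh38.p14, 300 bases from 250 before to 50 after the gene's start, written 5′ to 3′ along the gene. Capitals mark the CHR (TTTGAA), the CCAAT box (CCAAT) and the E2F motif (TTTCCCGC, TTTGGCGC, TTTCGCGC or TTTGCCGC), read on both strands, so ATTGG is a CCAAT box on the other strand. CDK1 lies at chr10:60778081-60778380 on the plus strand, PLK1 at chr16:23678639-23678938 on the plus strand, MKI67 at chr10:128126374-128126673 on the minus strand, MCM2 at chr3:127598161-127598460 on the plus strand and MCM6 at chr2:135876394-135876693 on the minus strand. In CDK1 the gene's start is 147 bases before the start of the counted transcript. In the other 4 both starts are the same.
CDK1: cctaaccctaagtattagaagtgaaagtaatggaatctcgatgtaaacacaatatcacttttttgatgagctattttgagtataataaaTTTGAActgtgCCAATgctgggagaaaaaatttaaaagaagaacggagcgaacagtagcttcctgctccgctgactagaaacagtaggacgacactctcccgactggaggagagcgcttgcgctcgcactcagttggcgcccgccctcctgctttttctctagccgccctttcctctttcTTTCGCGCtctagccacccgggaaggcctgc
PLK1: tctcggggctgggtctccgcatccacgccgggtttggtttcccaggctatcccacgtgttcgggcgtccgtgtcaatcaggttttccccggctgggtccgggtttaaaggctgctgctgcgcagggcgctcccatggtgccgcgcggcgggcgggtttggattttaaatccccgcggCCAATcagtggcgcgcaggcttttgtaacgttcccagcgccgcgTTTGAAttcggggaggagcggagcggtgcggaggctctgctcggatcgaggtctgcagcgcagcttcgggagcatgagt
MKI67: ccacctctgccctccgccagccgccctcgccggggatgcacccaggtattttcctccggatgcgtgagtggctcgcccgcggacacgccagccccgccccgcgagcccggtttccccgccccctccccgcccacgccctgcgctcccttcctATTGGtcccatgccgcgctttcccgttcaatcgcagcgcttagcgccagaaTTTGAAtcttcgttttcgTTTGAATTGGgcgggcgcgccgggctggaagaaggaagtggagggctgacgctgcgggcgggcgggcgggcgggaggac
MCM2: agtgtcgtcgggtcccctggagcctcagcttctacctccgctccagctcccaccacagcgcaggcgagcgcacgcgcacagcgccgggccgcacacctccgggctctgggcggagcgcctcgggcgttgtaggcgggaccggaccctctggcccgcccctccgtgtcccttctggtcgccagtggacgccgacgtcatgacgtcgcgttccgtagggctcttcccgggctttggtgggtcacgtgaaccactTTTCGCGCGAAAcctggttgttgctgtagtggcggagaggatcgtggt
MCM6: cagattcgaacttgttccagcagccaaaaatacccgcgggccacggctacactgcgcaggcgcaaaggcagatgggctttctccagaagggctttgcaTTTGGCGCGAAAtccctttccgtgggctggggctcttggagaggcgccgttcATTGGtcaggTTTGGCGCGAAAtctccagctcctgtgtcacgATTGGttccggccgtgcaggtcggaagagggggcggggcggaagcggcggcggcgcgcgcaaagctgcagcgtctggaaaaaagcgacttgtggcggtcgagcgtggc

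PLK1 and MKI67 carried a CHR 29 bases before the start, with a CCAAT box upstream of it, 73 bases before the start in PLK1 and 98 in MKI67. MKI67 also held another CHR, 47 bases before the start, and another CCAAT box that overlaps the CHR nearest the start. CDK1 held all 3 motifs, with the CHR 161 bases before the start and upstream of the CCAAT box (150 bases before it), not downstream as in the arrangement described above. Its window ends before the start of the counted transcript. The bases just before that start were therefore not searched, and motifs there would be missed. MCM2 and MCM6 held E2F motifs and no CHR. The E2F stretch of MCM2 reads the same on both strands, and each of those of MCM6 holds a different listed form on each strand. RefSeq promoters were matched by symbol for 34 of the 46 genes, 25 of them at the start of the counted transcript. Of the 16 promoters of G2/M and mitotic genes, 62.5% held a CHR, 87.5% a CCAAT box and 6.25% an E2F motif. Of the 13 promoters of E2F, licensing and DNA synthesis genes, 0% held a CHR, 69.2% a CCAAT box and 84.6% an E2F motif. Among all 27305 promoters of the table the shares were 15.4%, 35.7% and 3.33%, and among the 10052 promoters of tested genes 9.75%, 36.9% and 5.39%. A match describes letters in this window, and binding was not measured.

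The genes were well expressed in every group, and their levels resembled one another across treatments. Levels are CPM, counts scaled to the TMM-adjusted size of a library, and levels of different genes are compared per kilobase of transcript. The median of the 45 tested genes was 28.6 CPM per kilobase, against 7.3 for all 13166 tested genes, and 43 of the 45 lay above the median of all tested genes. PCNA, the sliding clamp of the DNA polymerases, was highest at 443 ± 88 CPM per kilobase (SD, n = 12 libraries). It was followed by CDK1, the mitotic kinase, at 138 ± 27.1 and by TOP2A, the topoisomerase of condensing chromosomes, at 117. CCNE2, a cyclin of S-phase entry, at 3.52 and E2F2, an activating E2F, at 2.21 were lowest. Of the 44 neighbouring pairs in this order 41 overlapped within 1 SD, and the steps that did not were from PCNA to CDK1, from TOP2A to TYMS and from KIF23 to CCNE2. The median ratio of a gene's highest to its lowest library was 1.55 for these genes and 1.68 for all tested genes.

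**Figure D1:**
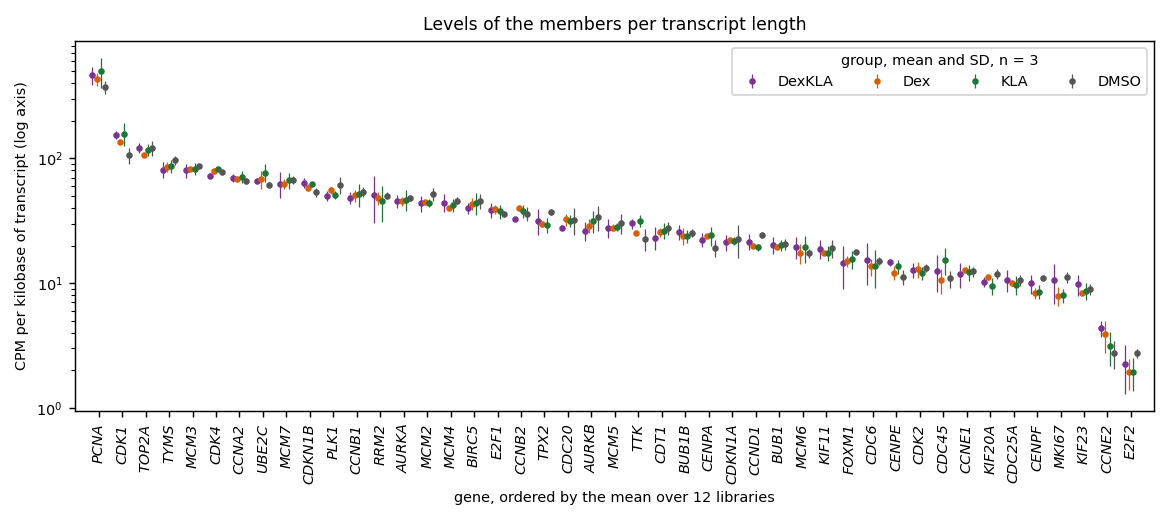
Level of each of the 45 tested genes in CPM per kilobase of transcript (log axis), ordered by the mean over 12 libraries. Points are group means and bars are SDs over 3 libraries for DexKLA, Dex, KLA and DMSO. PCNA at 443 CPM per kilobase and E2F2 at 2.21 mark the ends, and the group means of a gene lie close together beside the range between genes.

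Summed over the list, the genes took 0.472% to 0.65% of a library's counts in DexKLA, 0.495% to 0.523% in Dex, 0.46% to 0.589% in KLA and 0.549% to 0.585% in DMSO. DexKLA replicate 3 held 0.65%, above 0.472% and 0.478% in replicates 1 and 2, and KLA replicate 3 held 0.589%, above 0.46% and 0.536%. The summed hepatocyte and HepG2 identity genes were lowest in the same libraries, with 12.6% in DexKLA replicate 3 against 15.2% and 15.1% in its partners, and 12% in KLA replicate 3 against 12.8% and 12.6%. Their part in the difference was not tested. The range within each of these 2 groups was therefore wider than any gap between group means. In DexKLA, 39 of the 45 genes (86.7%) had their highest level in replicate 3, where 38.2% of all tested genes did. In KLA, 34 of 45 (75.6%) were highest in replicate 3, against 40% of all tested genes. Dex and DMSO each had 24 of 45 (53.3%) highest in replicate 2, against 33.9% and 28.5% of all tested genes. On the first principal component of the 45 genes, which held 42.6% of their variance, the ends were DexKLA replicate 3 at −1.84 and KLA replicate 1 at 1.39. RRM2, the small subunit of ribonucleotide reductase, shows the pattern: 124, 146 and 255 CPM in DexKLA, 167, 181 and 144 in Dex, 123, 132 and 211 in KLA, and 164, 185 and 167 in DMSO.

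**Figure D2:**
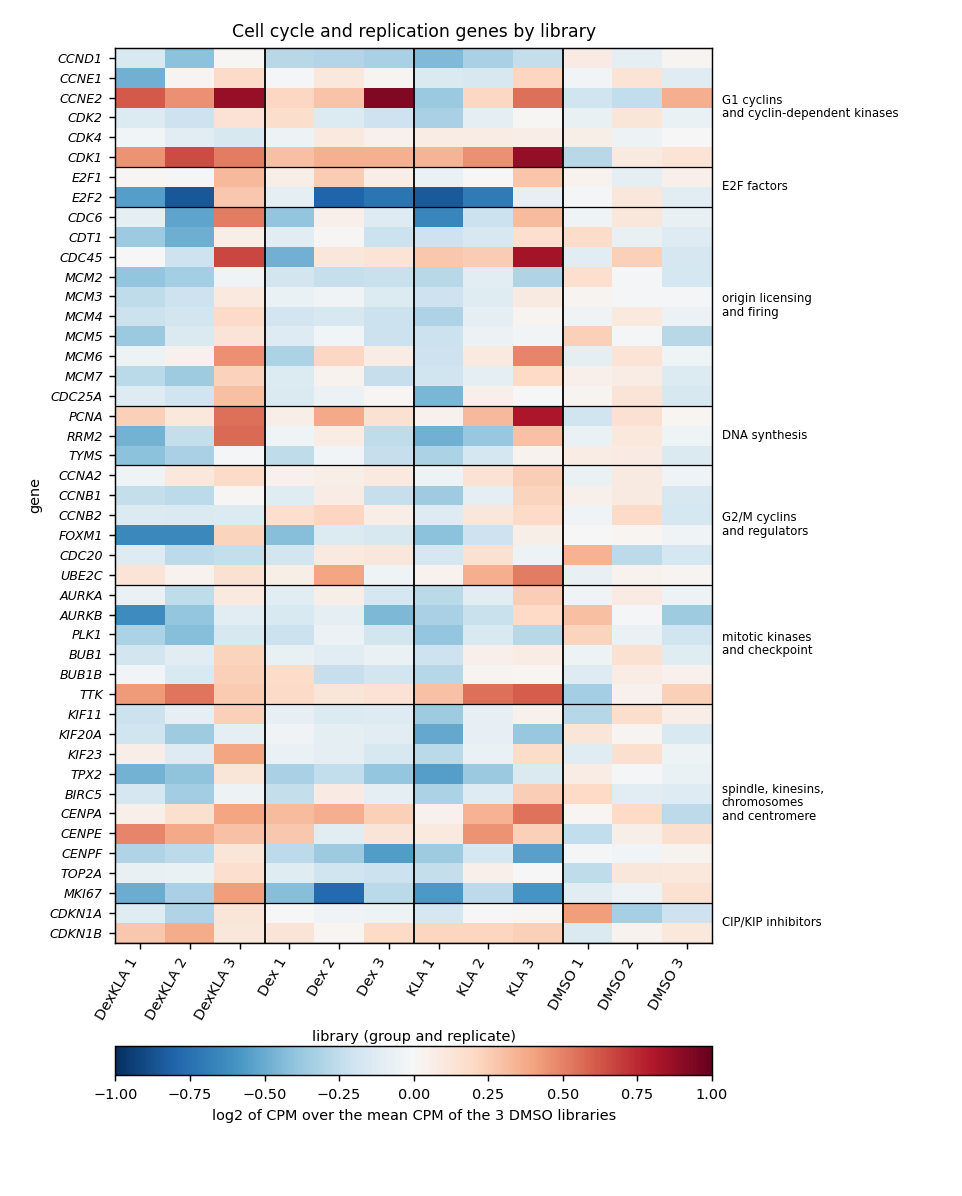
Level of each tested gene (rows, by role) in each of the 12 libraries (columns, DexKLA, Dex, KLA, DMSO), as log2 of its CPM over the mean CPM of the 3 DMSO libraries. Red is higher and blue is lower than that mean. DexKLA replicate 3 and KLA replicate 3 are redder than their group partners, and CDK1 is red in all 9 treated libraries.

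Few of the genes differed from DMSO after any treatment. Tests were edgeR's quasi-likelihood tests on all 12 libraries, with Benjamini-Hochberg adjustment over the 13166 tested genes, and an adjusted p under 0.05 counted as a call. A log2 change of 1 is a 2-fold difference, and errors of log2 changes are standard errors. With KLA, 3 of the 45 genes were called (6.67%, against 13.7% of all tested genes). CDK1 and TTK rose and CCND1 fell, where 7.78% of all tested genes rose and 5.92% fell. With DexKLA, only CDK1 was called (2.22%, against 4.24% of all tested genes), and it rose, where 2.86% of all tested genes rose and 1.38% fell. With Dex alone 0 genes were called, against 2.05% of all tested genes. DESeq2 called 3 of the 45 with DexKLA (6.67%, against 6.99% of all tested genes), 0 with Dex and 5 with KLA (11.1%, against 16.3%). At an unadjusted p under 0.05 the counts were 7 of 45 for DexKLA (21.4% of all tested genes), 6 for Dex (20.4%) and 14 for KLA (31.6%). With library size alone as the scaling, which moved the median of all genes to between −0.13 and −0.11 versus DMSO, edgeR called 2 genes higher and 6 lower in KLA (17.8%, against 17.1% of all tested genes, of which 534 were higher and 1719 lower) and 0 in DexKLA (against 3.62%). The counts also rested on single libraries: without DMSO replicate 1, 0 of the 45 genes were called in either comparison, and 5 of all tested genes in KLA and 48 in DexKLA, where 1803 and 558 were called with all libraries. With KLA, 7 of the 45 were called without DexKLA replicate 3, with CDK1, PCNA and TTK higher and CCND1, CENPF, MKI67 and TPX2 lower (15.6%, against 18.4% of all tested genes). Without KLA replicate 2 the count was 5 (11.1%, against 14.4%), and without KLA replicate 3 it was 1 (2.22%, against 4.6%).

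The size of these changes was small. In DexKLA versus DMSO the log2 changes ran from −0.34 to 0.68 with a median of −0.06, in Dex versus DMSO from −0.59 to 0.47 with a median of −0.07, and in KLA versus DMSO from −0.50 to 0.58 with a median of −0.05. Over all tested genes the medians were −0.02, −0.01 and −0.02 for the same 3 comparisons. The median size of a change, sign aside, was 0.14, 0.12 and 0.13 for these genes and 0.20, 0.19 and 0.23 for all tested genes. The 95% interval of the change stayed within a 2-fold difference for 44 of the 45 genes in DexKLA versus DMSO, for 43 in Dex versus DMSO and for 44 in KLA versus DMSO, and within a 1.5-fold difference for 36, 37 and 34. The exceptions at 2-fold were E2F2 and CCNE2, the genes with the lowest levels. The 3 treated libraries lay clear of the 3 DMSO libraries for 5 genes in DexKLA (11.1%, against 26.2% of all tested genes), for 11 in Dex (24.4%, against 28%) and for 9 in KLA (20%, against 36.2%). The 3 comparisons share their DMSO libraries.

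**Figure D3:**
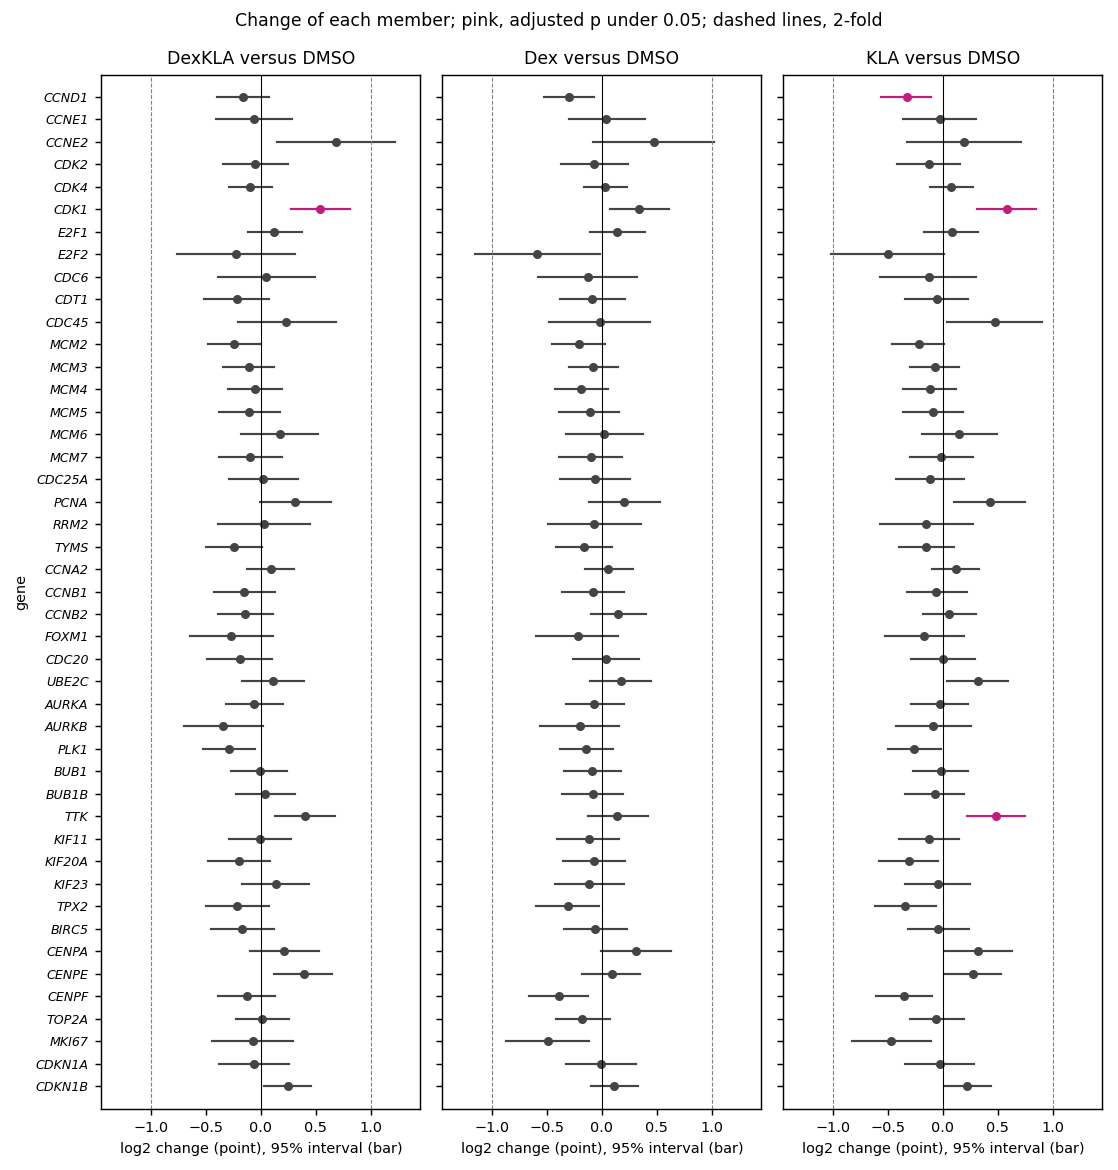
Log2 change of each tested gene (point) with its 95% interval (bar) in DexKLA, Dex and KLA cells, each versus DMSO. Pink marks an adjusted p under 0.05 (CDK1 in DexKLA; CCND1, CDK1 and TTK in KLA) and dashed lines mark a 2-fold difference. Most intervals cross 0 and lie inside the dashed lines.

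Among the cyclins and kinases of G1 and their mitotic partner, CDK1 was the gene that moved most clearly. CDK1, which with the A and B cyclins triggers mitosis, is transcribed from chr10:60778478-60794852 on the plus strand, with no overlapping gene in the table. It had 272, 312 and 284 CPM in DexKLA, 245, 255 and 254 CPM in Dex, 252, 273 and 366 CPM in KLA, and 164, 212 and 219 CPM in DMSO. All 9 treated libraries lay above all 3 DMSO libraries, of which replicate 1 was the lowest. CDK1 rose by 0.54 ± 0.13 in DexKLA versus DMSO (edgeR, adjusted p = 0.0261) and by 0.58 ± 0.13 in KLA versus DMSO (adjusted p = 0.0109). In Dex versus DMSO the change was 0.34 ± 0.13 (adjusted p = 0.15), not called. Without DMSO replicate 1 neither call held, at 0.42 in DexKLA (adjusted p = 0.198) and 0.46 in KLA (adjusted p = 0.0775). The DexKLA call was also lost without DMSO replicate 2 (adjusted p = 0.0523), without DexKLA replicate 1 (adjusted p = 0.0634) and without DexKLA replicate 2 (adjusted p = 0.129).

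CCND1, the D-type cyclin that relays mitogen signals and lies at chr11:69641105-69654474 on the plus strand, had 93.8, 78.4 and 105 CPM in DexKLA, 85.8, 84.7 and 83 CPM in Dex, 76.4, 83 and 88.1 CPM in KLA, and 110, 97.1 and 106 CPM in DMSO. The Dex and KLA libraries lay below all DMSO libraries and the DexKLA libraries overlapped them. CCND1 fell by 0.33 ± 0.11 on the log2 scale in KLA versus DMSO (adjusted p = 0.0463). The change was −0.30 ± 0.11 in Dex versus DMSO (adjusted p = 0.14) and −0.16 in DexKLA versus DMSO. The KLA call sat at the threshold: it held in 2 of 12 analyses that each left out 1 library, without DexKLA replicate 2 or 3, with adjusted p from 0.0263 to 0.155 and log2 changes from −0.39 to −0.28.

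CCNE1, the E cyclin that fires S-phase entry, had 17.3, 24.6 and 27.5 CPM in DexKLA, 23.8, 25.9 and 24.6 CPM in Dex, 21.8, 21.6 and 27.9 CPM in KLA, and 23.6, 26.5 and 22.2 CPM in DMSO. The 4 groups overlapped, and its log2 changes from DMSO lay between −0.06 and 0.04. Its paralog CCNE2, at a lower level, had 11.4, 10.2 and 13.6 CPM in DexKLA, 8.58, 9.05 and 14.1 CPM in Dex, 5.76, 8.59 and 10.9 CPM in KLA, and 6.47, 6.27 and 9.59 CPM in DMSO. CCNE2 overlaps INTS8 on the other strand, and whether the libraries keep the strand is not given in the sources used here, so their reads cannot be told apart. DexKLA libraries lay above the DMSO ones for CCNE2 with a change of 0.68 ± 0.26, not called (adjusted p = 0.126). CDK2 and CDK4, the kinases of the E and D cyclins, stayed within 0.13 of DMSO on the log2 scale in all 3 groups and CDK4 varied least of all 45 genes, by a factor of 1.2 between its lowest and highest library.

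Of the 2 E2F factors, the 10 licensing and firing genes and the 3 DNA synthesis genes, 0 were called by edgeR versus DMSO in any of the 3 treatments. At an unadjusted p under 0.05 that was 1 of the 15 in DexKLA (MCM2), 1 in Dex (E2F2) and 2 in KLA (CDC45 and PCNA). Over all tested genes the shares were 21.4%, 20.4% and 31.6% in that order. DESeq2 called PCNA in KLA and no other of the 15, where it called 16.3% of all tested genes in KLA. E2F1, the activating E2F, had 96.5, 94.8 and 120 CPM in DexKLA, 99.7, 114 and 99.9 CPM in Dex, 91.4, 95.5 and 116 CPM in KLA, and 97.9, 89.9 and 98.9 CPM in DMSO. Dex libraries lay just above the DMSO ones, with a change of 0.14 ± 0.12 (adjusted p = 0.545). E2F2 had the lowest levels, with 9.69, 7.88 and 17.1 CPM in DexKLA, 13.3, 8.13 and 8.57 CPM in Dex, 7.94, 8.69 and 13.4 CPM in KLA, and 14.1, 15.4 and 13.1 CPM in DMSO. Its transcript is listed at 2 loci, so its reads cannot be assigned to 1 locus.

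MCM2, a subunit of the replicative helicase whose promoter is printed above, had 134, 139 and 172 CPM in DexKLA, 155, 150 and 151 CPM in Dex, 145, 164 and 143 CPM in KLA, and 198, 175 and 156 CPM in DMSO. Its Dex libraries lay below all DMSO libraries and the other groups overlapped DMSO. Its changes were −0.24 ± 0.11 in DexKLA (adjusted p = 0.23), −0.21 ± 0.12 in Dex (adjusted p = 0.296) and −0.22 ± 0.11 in KLA (adjusted p = 0.183). MCM6, another subunit whose promoter is printed above, had 62.6, 66.8 and 88.8 CPM in DexKLA, 52, 74.6 and 68.1 CPM in Dex, 56, 69.2 and 91.1 CPM in KLA, and 60.5, 71.3 and 62.8 CPM in DMSO, and every treated group overlapped DMSO. The 5 helicase subunits MCM3 to MCM7 had changes from DMSO between −0.19 and 0.17. CDC6 and CDT1, which load the helicase, and CDC25A, the phosphatase that frees CDK2, stayed between −0.22 and 0.05. CDC45, part of the active helicase, reached 0.47 ± 0.21 in KLA (adjusted p = 0.125) with libraries at 27.1, 26.8 and 40.1 CPM in KLA against 20.8, 26.5 and 20 CPM in DMSO.

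PCNA had 560, 511 and 694 CPM in DexKLA, 496, 616 and 527 CPM in Dex, 490, 594 and 832 CPM in KLA, and 414, 527 and 482 CPM in DMSO. Every treated group overlapped DMSO. The change in KLA was 0.43 ± 0.16 (edgeR, adjusted p = 0.0682; DESeq2, adjusted p = 0.0388), with KLA replicate 3 far above its partners. PCNA overlaps PCNA-AS1 on the other strand. TYMS, the enzyme that makes thymidylate, had 116, 123 and 152 CPM in DexKLA, 129, 151 and 131 CPM in Dex, 124, 136 and 158 CPM in KLA, and 162, 163 and 139 CPM in DMSO. Groups overlapped for TYMS, with changes from −0.24 to −0.15, and its locus is shared on the other strand with ENOSF1 and TYMSOS.

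Of the 6 cyclins and regulators of G2 and M, 0 were called by edgeR or DESeq2 in any treatment versus DMSO. An unadjusted p under 0.05 was found for 1 (UBE2C, in KLA; 16.7%, against 31.6% of all tested genes). CCNA2, the cyclin of S phase and G2, had 175, 194 and 205 CPM in DexKLA, 185, 187 and 193 CPM in Dex, 174, 199 and 214 CPM in KLA, and 172, 192 and 176 CPM in DMSO. CCNB1, the cyclin of mitotic entry, had 91.4, 90.2 and 109 CPM in DexKLA, 99.1, 114 and 92.2 CPM in Dex, 84.4, 101 and 126 CPM in KLA, and 112, 115 and 96.7 CPM in DMSO. All groups overlapped for both, with changes from 0.06 to 0.12 for CCNA2 and from −0.15 to −0.06 for CCNB1. FOXM1, the factor that drives the genes of G2 and mitosis, had 40, 39.9 and 73 CPM in DexKLA, 46.5, 56.9 and 55.8 CPM in Dex, 47, 54 and 64.9 CPM in KLA, and 62.7, 63.4 and 61 CPM in DMSO. Its Dex libraries lay below DMSO and its DexKLA libraries stood on both sides of it. CCNA2 overlaps EXOSC9, and FOXM1 overlaps ITFG2 and RHNO1, on the other strand.

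The value of FOXM1 depended on 1 library. Its change in DexKLA versus DMSO was −0.27 ± 0.18 (adjusted p = 0.406) with all libraries and −0.64 (adjusted p = 0.00794) without DexKLA replicate 3. Without that library 6 of the 45 genes were called in DexKLA versus DMSO (13.3%, against 11.4% of all tested genes), with CDK1, CENPE and TTK higher and FOXM1, MCM2 and TPX2 lower, and their median change was −0.17. CCNB2, a B cyclin, differed in another way: its DexKLA libraries, at 48.4, 48.2 and 48.4 CPM, lay below all Dex libraries (59.8, 61.6 and 55.6 CPM) and all KLA libraries (48.6, 57.7 and 60.7 CPM), and overlapped DMSO (52, 60.6 and 47.1 CPM). CDC20 and UBE2C, the activator and the conjugating enzyme of the anaphase-promoting complex, had changes from DMSO between −0.19 and 0.32.

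Among the 6 mitotic kinases and checkpoint genes, TTK was the one called. TTK is the MPS1 kinase that starts the spindle checkpoint, and its transcript spans chr6:80004605-80042527 on the plus strand with no overlapping gene. TTK had 91, 98.1 and 81.3 CPM in DexKLA, 77.2, 73.7 and 74.9 CPM in Dex, 83.1, 99 and 103 CPM in KLA, and 53.4, 69.9 and 79.7 CPM in DMSO. Both groups with KLA lay above all DMSO libraries and Dex lay within the DMSO range. TTK rose by 0.48 ± 0.13 in KLA versus DMSO (edgeR, adjusted p = 0.0195). In DexKLA versus DMSO its change was 0.40 ± 0.13 (adjusted p = 0.0779), not called by edgeR and called by DESeq2 (adjusted p = 0.0409). The KLA call was lost without DMSO replicate 1 (0.35, adjusted p = 0.113) and without KLA replicate 3 (0.42, adjusted p = 0.0584).

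The other 5 genes of this role, AURKA and AURKB (the Aurora kinases), PLK1 (the Polo kinase), BUB1 and BUB1B (checkpoint proteins), had changes from DMSO between −0.34 and 0.04. PLK1, whose promoter is printed above, had 106, 98.3 and 118 CPM in DexKLA, 114, 127 and 116 CPM in Dex, 101, 119 and 109 CPM in KLA, and 154, 126 and 115 CPM in DMSO. Its libraries overlapped DMSO in every group, with changes of −0.29 ± 0.12 in DexKLA (adjusted p = 0.155) and −0.26 ± 0.11 in KLA (adjusted p = 0.121). PLK1 overlaps ERN2 on the other strand.

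**Figure D4:**
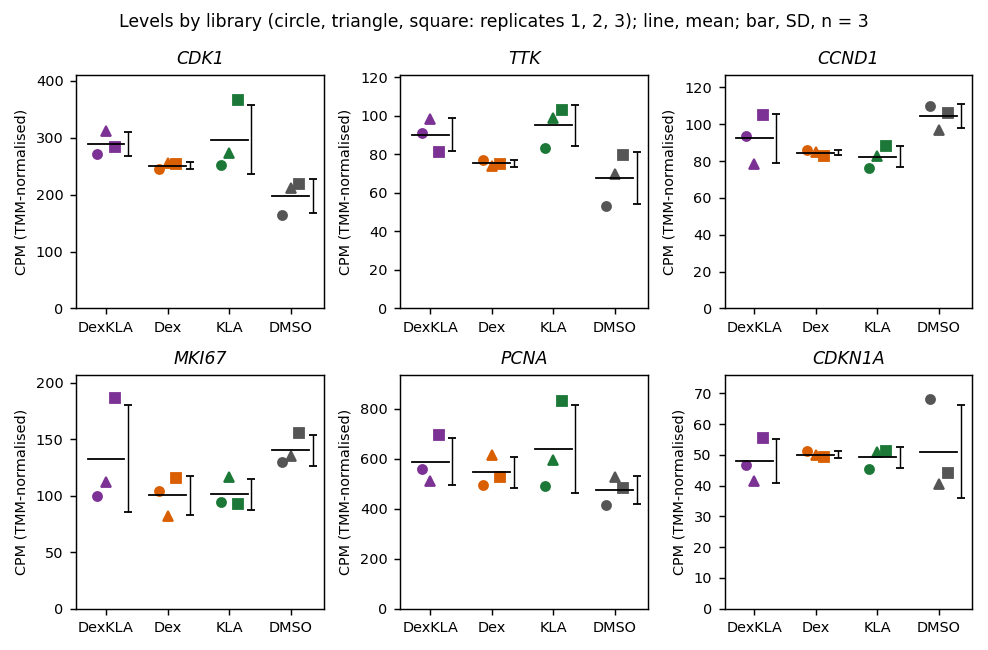
TMM-normalised CPM of CDK1, TTK, CCND1, MKI67, PCNA and CDKN1A in every library (circle, triangle and square for replicates 1, 2 and 3) of DexKLA, Dex, KLA and DMSO. Lines are group means and bars are SDs (n = 3), and every axis starts at 0. CDK1 lies above DMSO in all 9 treated libraries, and the other 5 genes overlap DMSO in at least 1 treated group.

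Of the 10 genes of the spindle, kinesins, chromosomes and centromere, 0 were called by edgeR versus DMSO. At an unadjusted p under 0.05 there were 1 in DexKLA (10%, against 21.4% of all tested genes) and 3 in Dex (30%, against 20.4%). In KLA there were 6 (60%, against 31.6%), of which 2 were higher and 4 lower. MKI67, which codes for the Ki-67 antigen used to count dividing cells, had 99.5, 112 and 187 CPM in DexKLA, 104, 81.9 and 116 CPM in Dex, 94.2, 117 and 92.9 CPM in KLA, and 130, 135 and 156 CPM in DMSO. The Dex and KLA libraries lay below all DMSO libraries, and the DexKLA libraries lay on both sides of them. Its change was −0.07 in DexKLA, −0.49 ± 0.18 in Dex (edgeR, adjusted p = 0.127) and −0.47 ± 0.17 in KLA (adjusted p = 0.0721). CENPF, a kinetochore protein, had 90.8, 93.2 and 122 CPM in DexKLA, 93.3, 87.1 and 76 CPM in Dex, 87.4, 98.9 and 76.7 CPM in KLA, and 111, 110 and 115 CPM in DMSO. It showed the same order, with −0.39 ± 0.13 in Dex (adjusted p = 0.0926) and −0.35 ± 0.12 in KLA (edgeR, adjusted p = 0.0585), and DESeq2 called the change in KLA.

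CENPE, a kinesin of the kinetochore, moved the other way, with 128, 119 and 112 CPM in DexKLA, 110, 85 and 99.9 CPM in Dex, 97.6, 125 and 108 CPM in KLA, and 77, 95.3 and 102 CPM in DMSO. Its change was 0.39 ± 0.13 in DexKLA (edgeR, adjusted p = 0.0811), a call by DESeq2, and 0.27 ± 0.12 in KLA (adjusted p = 0.145). TOP2A had 651, 655 and 769 CPM in DexKLA, 631, 599 and 591 CPM in Dex, 581, 711 and 687 CPM in KLA, and 574, 744 and 739 CPM in DMSO. All groups overlapped DMSO for TOP2A, with changes from −0.18 to 0.01. TPX2, a spindle assembly factor, had Dex and KLA libraries below DMSO, at −0.31 ± 0.14 and −0.34 ± 0.13 (adjusted p = 0.205 and 0.0866). The kinesins KIF11, KIF20A and KIF23, the survivin gene BIRC5 and the centromeric histone CENPA had changes between −0.31 and 0.32.

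The CIP/KIP inhibitors showed no call. CDKN1A (p21), a p53 target, had 46.8, 41.5 and 55.5 CPM in DexKLA, 51.2, 49.9 and 49.2 CPM in Dex, 45.3, 51.1 and 51.3 CPM in KLA, and 68.3, 40.5 and 44.2 CPM in DMSO. The groups overlapped, and DMSO replicate 1 alone set the top of the range. Its change was −0.06 ± 0.15 in DexKLA (95% interval −0.38 to 0.26), −0.01 ± 0.16 in Dex (−0.33 to 0.31) and −0.03 ± 0.15 in KLA (−0.34 to 0.28), so a 2-fold rise lay outside all 3 intervals. CDKN1B (p27) had 163, 175 and 146 CPM in DexKLA, 148, 137 and 155 CPM in Dex, 157, 157 and 159 CPM in KLA, and 122, 138 and 145 CPM in DMSO. DexKLA and KLA libraries lay above DMSO for CDKN1B, by 0.25 ± 0.10 (adjusted p = 0.166) and 0.22 ± 0.10 (adjusted p = 0.136), neither called.

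CDKN1C (p57) was listed at 0 counts in all 12 libraries, in each of its 5 transcripts. A count of 0 would allow up to 3 counts, or 0.143 CPM in the deepest library (KLA replicate 2) and 0.904 CPM in the shallowest (DMSO replicate 1), for counting error alone. Its transcript is listed at 2 loci, and how reads with more than 1 locus were counted is not given in the sources used here, so the 0 does not show that CDKN1C RNA was missing.

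Adding Dex to KLA, or KLA to Dex, changed none of the 45 genes past the test. In DexKLA versus KLA edgeR called 0 of 45, against 0.653% of all tested genes, with 2 at an unadjusted p under 0.05 (CCNE2 and MKI67; 10.5% of all tested genes) and 0 by DESeq2. In DexKLA versus Dex edgeR called 0 of 45, against 0% of all tested genes, with 4 at an unadjusted p under 0.05 (CCNB2, CENPE, CENPF and MKI67; 7.1% of all tested genes) and 0 by DESeq2. The log2 changes ran from −0.25 to 0.50 in DexKLA versus KLA and from −0.29 to 0.42 in DexKLA versus Dex. All 45 intervals stayed within a 2-fold difference in both. The libraries lay apart for 2 genes in DexKLA versus KLA (4.44%, against 15.3% of all tested genes) and for 5 in DexKLA versus Dex (11.1%, against 12.7%).

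The interaction asks whether the effect of Dex differed between cells with and without KLA, as (DexKLA minus KLA) minus (Dex minus DMSO). EdgeR called 0 of the 45 genes, against 0.038% of all tested genes, and 6 had an unadjusted p under 0.05 (CCNB2, CCND1, CENPF, E2F2, MKI67 and TPX2; 13.3%, against 22.2% of all tested genes). DESeq2 called CENPF and MKI67 (4.44%, against 5.35% of all tested genes). MKI67 had an interaction of 0.89 ± 0.25 (edgeR, adjusted p = 0.0659), CENPF one of 0.62 ± 0.18 (adjusted p = 0.0683) and CCND1 one of 0.47 ± 0.16 (adjusted p = 0.092). For MKI67 the 4 means were 133 ± 47.2 CPM in DexKLA, 101 ± 17.3 CPM in Dex, 101 ± 13.6 CPM in KLA and 140 ± 14 CPM in DMSO (SD, n = 3). The mean of every treated group was thus below that of DMSO, by least in DexKLA, where replicate 3 had 187 CPM and its partners, at 99.5 and 112 CPM, lay below every DMSO library. Without DexKLA replicate 3 the edgeR interaction was called for 0 of the 45 genes, and without DexKLA replicate 1 for MKI67 (1.07, adjusted p = 0.0274) and CENPF (4.44%, against 5.3% of all tested genes).

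Transcript length moved with these changes. MKI67 (12697 bases) and CENPF (10268 bases) have the longest counted transcripts of the 45, and PCNA (1268 bases) and UBE2C (769 bases) are among the shortest. Across the 45 genes, which share their libraries and are not replicates, Spearman's rho between log2 change and length was 0.03 in DexKLA versus DMSO, −0.58 in Dex versus DMSO, −0.51 in KLA versus DMSO, 0.80 in DexKLA versus KLA, 0.66 in DexKLA versus Dex and 0.81 for the interaction. Across all 13166 tested genes it was −0.18, −0.45, −0.47, 0.49, 0.39 and 0.58 in the same order. The trend differed between libraries. Within a library, rho between length and a gene's deviation from its mean over libraries ran from −0.13 to 0.39 in DexKLA, from −0.53 to 0.14 in Dex, from −0.53 to −0.15 in KLA and from 0.19 to 0.40 in DMSO. Single libraries stood apart in the treated groups. Replicate 3 had the 0.39 of DexKLA (partners −0.13 and 0.09) and the −0.53 of KLA (partners −0.18 and −0.15). Replicate 2 had the −0.53 of Dex (partners 0.14 and −0.15). With each library's smooth trend on length taken out, rho across the 45 genes was 0.17, −0.08, 0.02, 0.34, 0.44 and 0.30 in the same order of comparisons. CDK1 and TTK stayed called in KLA, CDK1 stayed called in DexKLA, CENPE joined as higher in both, CCND1 was no longer called (−0.25, adjusted p = 0.141) and PLK1 was called as lower in KLA. That made 2 of the 45 genes in DexKLA (4.44%, against 6.21% of all tested genes) and 4 in KLA (8.89%, against 8.08%).

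**Figure D5:**
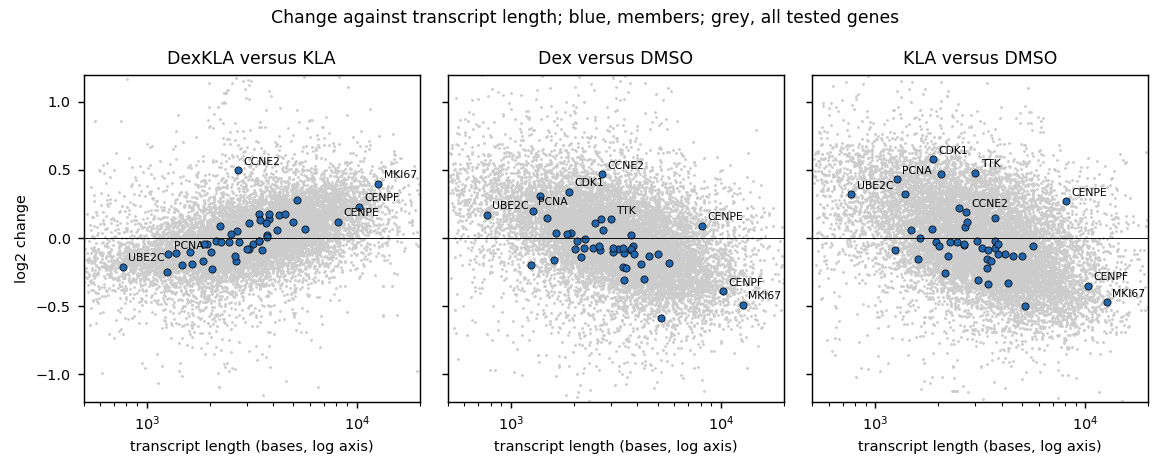
Log2 change against counted transcript length (log axis) in DexKLA versus KLA, Dex versus DMSO and KLA versus DMSO, for the tested cell cycle genes (blue) and all 13166 tested genes (grey, of which 237, 273 and 243 lie outside the axes). MKI67 and CENPF, the longest, lie high on the right in DexKLA versus KLA and low on the right in the other panels.

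Other genes of the pathway were followed in lists of related genes. Of 67 other mitosis genes, all tested, 3 rose and 0 fell in DexKLA versus DMSO (4.48%, against 4.24% of all tested genes), 0 were called in Dex versus DMSO, and 16 rose and 0 fell in KLA versus DMSO (23.9%, against 13.7%). Their median log2 change was 0.15 in DexKLA, 0.03 in Dex and 0.09 in KLA. Over all tested genes 2.86% rose and 1.38% fell in DexKLA, and 7.78% rose and 5.92% fell in KLA. CKS2 and CKS1B, small subunits that bind CDK1, rose by 0.63 ± 0.13 and 0.71 ± 0.15 in KLA (edgeR, adjusted p = 0.00918 and 0.0106). MAD2L1, the spindle checkpoint inhibitor of CDC20, rose by 0.54 ± 0.12 (adjusted p = 0.0113) and CDC25C, the phosphatase that activates CDK1, by 0.49 ± 0.12 (adjusted p = 0.0158). In DexKLA, SGO2, the centromere cohesion guard, rose by 0.58 ± 0.13 (adjusted p = 0.0154), HMMR, a spindle protein, by 0.54 ± 0.14 and CKS2 by 0.50 ± 0.13 (adjusted p = 0.0353 for both). These counts depended on the same libraries: without DMSO replicate 1, 0 of the 67 were called in either comparison, and without KLA replicate 3, 3 were called in KLA. With library size alone as the scaling, 7 rose and 5 fell in KLA. Over the 24 alternative analyses, 1 of which took out the length trend, 0 to 18 rose and 0 to 5 fell in KLA. With the depth class of a library (the 6 deeper or the 6 shallower) as a covariate, 4 of all tested genes were called in KLA. Every KLA library is in the deeper class and every DMSO library in the shallower one, so that fit has little power for this comparison.

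Of 50 other replication genes, 3 rose and 0 fell in DexKLA versus DMSO (6%, against 4.24% of all tested genes), 0 were called in Dex versus DMSO, and 6 rose and 1 fell in KLA versus DMSO (14%, against 13.7%). RPA3, a subunit of the single-strand binding protein, rose by 0.73 ± 0.15 in KLA (edgeR, adjusted p = 0.00918). ORC3, of the origin recognition complex, rose by 0.60 ± 0.13 in DexKLA (adjusted p = 0.0136) and 0.54 ± 0.12 in KLA (adjusted p = 0.0116), and PRIM1, the primase, by 0.64 ± 0.15 (adjusted p = 0.024) and 0.60 ± 0.15 (adjusted p = 0.0148). POLA1, the catalytic subunit of the polymerase that extends primers, fell by 0.54 ± 0.17 on the log2 scale in KLA (adjusted p = 0.0393). Without DMSO replicate 1, 0 of the 50 were called in DexKLA or KLA versus DMSO. With library size alone as the scaling, 3 rose and 5 fell in KLA. Over the 24 alternative analyses 0 to 8 rose and 0 to 5 fell in KLA.

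Of 5 other kinase inhibitors, 2 were called in KLA versus DMSO (40%, against 13.7% of all tested genes). CDKN2A (p16 and ARF) rose by 0.83 ± 0.25 (edgeR, adjusted p = 0.0323) and CDKN3, a phosphatase that acts on CDK1 and CDK2, by 0.73 ± 0.18 (adjusted p = 0.0136). Neither held without DMSO replicate 1 or without KLA replicate 3. The other lists had 0 calls by edgeR versus DMSO in any treatment: 17 genes of the pocket proteins, other E2F and the DREAM and MuvB complexes, 25 p53 targets other than CDKN1A, 7 tested mitogen-responsive transcription factors and 3 tested G1 cyclins and kinases. At an unadjusted p under 0.05, the p53 targets held 2 in DexKLA (8%), 1 in Dex (4%) and 7 in KLA (28%). The pocket protein list held 0 (0%), 2 (11.8%) and 3 (17.6%). The 7 mitogen-responsive factors held 3 (42.9%, of which 1 was higher and 2 lower), 0 (0%) and 1 (14.3%). The 3 G1 cyclins and kinases held 0 in each. All tested genes had 21.4%, 20.4% and 31.6% in the same order. DESeq2 called 1 of the 25 p53 targets in DexKLA and 4 in KLA, all higher, against 6.99% and 16.3% of all tested genes. It called 0 genes of the other 3 lists.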

How the data were processed

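RNA of 12 HepG2 libraries was analysed from a deposited table of 70507 transcripts. Per the submitters' processing notes, Trimmomatic, BWA 0.7.17, HOMER 4.10 and the hg38 genome were used, and how each was used is not given in the sources used here. The values came in steps of 0.5, with 32.6% to 36.4% of a library's values not whole, and the deposited values are therefore called expected counts per transcript, made by the authors, and were rounded to whole numbers here. The other columns of the deposited table, the transcript length in bases and the number of annotated loci (other), were used as given. Left out were 406 transcripts that name no gene, with a share of 1.71% to 2.55% of each library. For each gene the transcript with the highest total was kept, and 12552 of the 28256 symbols had several transcripts. Among tested genes 742 had several loci.

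The test was edgeR 4.0.16 (R 4.3.3) with filterByExpr at a minimum count of 10, TMM scaling, 1 mean per group, 8 residual degrees of freedom, and Benjamini-Hochberg adjustment over 13166 genes in each of 6 comparisons. The standard error of a log2 change was worked back from the test, as its size over the square root of the quasi-likelihood F statistic. The 95% intervals were built from that error with the t distribution. Limits for a count of 0 use 3 counts and cover counting error only. Principal components used log2 CPM with a prior count of 2, computed here. The alternatives were 24: 12 that left out 1 library each, and 12 others, among them the test and size factors of DESeq2 1.42.0. The script for the gene tests was tested on simulated data. The least different pair of replicates had a chi-square of 1.88 per degree of freedom, so no library was counted as a copy. The 46 genes, the related lists and the tests were chosen with earlier results of these data known. Levels per library are given for every called gene and for 15 listed genes whether called or not, and for others where a sentence turns on them. From the related lists up to 4 called genes with the smallest p were named per comparison.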

Additional observations from a re-analysis of the deposited data

How the results depend on the processing

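For the 15 tested genes that are named by rule, no change that was called reversed under any of the 24 alternatives. CDK1 in KLA versus DMSO stayed called in 21 of 24, TTK in 20, CDK1 in DexKLA versus DMSO in 18 and CCND1 in 6. Depth limits the DMSO group, whose libraries hold 3317740 to 5277463 counts. With the depth class of a library (the 6 deeper or the 6 shallower) as a covariate, 0 genes of the list were called in KLA versus DMSO or in DexKLA versus DMSO. Every KLA library is in the deeper class and every DMSO library in the shallower one. That fit can therefore separate depth from KLA only through the Dex and DexKLA libraries. It has little power for KLA versus DMSO, and its loss of calls there does not show an effect of depth. Without DMSO replicate 1 and KLA replicate 3 together, 0 were called in KLA versus DMSO. The causes were not tested.

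The number of genes of the list called moved by more than 1.5 times as follows, each share set against that of all tested genes. In Dex versus DMSO (0) it was 2 with no filter (4.44%, against 4.56%). It was 5 with the libraries of the 2 groups alone (11.1%, against 11%). In KLA versus DMSO (3) it was 8 with library size alone (17.8%, against 17.1%) and 6 with no filter (13.3%, against 11.1%). With DESeq2 it was 5 (11.1%, against 16.3%). In DexKLA versus DMSO (1) it was 0 with library size alone (against 3.62%) and 4 with no filter (8.89%, against 4.96%). It was 2 with the length trend removed (4.44%, against 6.21%) and 3 with DESeq2 (6.67%, against 6.99%). For the interaction (0) it was 3 with no filter (6.67%, against 5.22%) and 2 with DESeq2 (4.44%, against 5.35%). It was 1 with libraries thinned to 3317740 counts (2.22%, against 0.693%). Leaving out 1 library gave 0 to 2 in Dex versus DMSO, 0 to 7 in KLA versus DMSO, 0 to 6 in DexKLA versus DMSO, 0 in both comparisons of DexKLA with a single agent, and 0 to 2 for the interaction. Versus DMSO the highest counts came without DexKLA replicate 3, at 4.44% (Dex), 15.6% (KLA) and 13.3% (DexKLA). All tested genes then had 5.67%, 18.4% and 11.4%. The 2 of the interaction were 4.44%, against 3.25% of all tested genes without KLA replicate 2 and 5.3% without DexKLA replicate 1.

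Of all tested genes, the 270 called in Dex versus DMSO became 909 with no filter, 1348 with the libraries of the 2 groups alone, 129 with the depth covariate and 650 with DESeq2. The 1803 in KLA versus DMSO became 1064 with the length trend removed, 4 with the depth covariate and 5 without DMSO replicate 1 and KLA replicate 3. The 558 in DexKLA versus DMSO became 987 with no filter, 173 with the depth covariate, 184 without those 2 libraries and 920 with DESeq2. The 86 in DexKLA versus KLA became 204 with no filter, 38 with the libraries of the 2 groups alone and 108 without those 2 libraries, and the 0 in DexKLA versus Dex became 12 with no filter. The 5 of the interaction became 0 with DESeq2 size factors in edgeR, 230 with library size alone, 1040 with no filter, 84 after thinning, 2 with the length trend removed, 0 with the depth covariate, 0 without those 2 libraries and 705 with DESeq2. Leaving out 1 library gave 56 to 915, 5 to 2363, 48 to 1461, 52 to 94, 0 and 0 to 681 calls in the 6 comparisons in this order. For KLA versus DMSO the low values were 5 without DMSO replicate 1, 591 without KLA replicate 3, 897 without DMSO replicate 2 and 895 without DMSO replicate 3. Of the called genes 67.4% were higher in DexKLA, 59.3% in Dex and 56.8% in KLA, each versus DMSO, and 27.7%, 26.3% and 23.7% with library size alone. The libraries of 2 groups alone give no interaction.

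With a replicate block, the calls of all genes fell to 134 in Dex versus DMSO, 326 in DexKLA versus DMSO and 0 for the interaction, and of the called genes of the list only CCND1 in KLA was lost (adjusted p = 0.0628). Libraries of the same number in different groups correlated at −0.31 to 0.17 (median −0.04, 18 pairs). Those of different numbers correlated at −0.31 to 0.44 (median 0.04, 36 pairs), and 1 of 12 libraries correlated best with its own number. No pairing by number was seen. With 3 libraries per group whose length trends differ, this check cannot exclude one.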
